A study of Mus musculus with 20 samples.

Results

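A set of 9 genes of Hedgehog signalling and of the gut mesenchyme was followed in orthotopic mouse colorectal tumours grown with and without galunisertib, a drug that blocks the kinase activity of TGF-beta receptor I. They are the ligands Ihh and Shh, the receptor Ptch1, the decoy receptor Hhip, the transcription factors Gli1, Gli2 and Gli3, and the forkhead factors Foxf1 and Foxl1. They make up 9 of the 17097 mouse genes with a named probe set. Each was represented by its single-symbol probe set of highest mean over 20 arrays, and all 9 passed the filter on dim genes that left 15556 genes for testing. The filter asked for a log2 value above 4.16 (25% of all values lie below it) on 2 arrays or more, a level that Gli1 exceeded on 16 arrays and the other 8 genes on all 20.

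The 20 tumours came from 5 mouse tumour organoid (MTO) lines grown in the caecum of C57BL/6J mice. MTO68 and MTO93 are parental lines of genotype LAKTP, MTO140 is an LAKTP line labelled LiM, MTO54 is parental and LAKP, and MTO207 is parental and LAKT. The labels give the genotypes by these letters only. Each line had 2 tumours from galunisertib-treated mice and 2 from control mice, described as biological replicates. Treated mice received 10 mg of galunisertib by gavage 2 times per day from day 11 until sacrifice at 5 weeks. MTO140 was injected as intact spheroids under the serosa of the caecum after 3 days of culture, whereas the other 4 lines first grew under the skin and were then transplanted as pieces of 1 mm3. Each genotype label other than LAKTP is held by 1 organoid line, each line was measured on a strip of its own, and the effects of line and strip cannot be told apart. For MTO140 the route of implantation cannot be told apart from them either.

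Hedgehog ligands made by gut epithelium bind Ptch1 on neighbouring mesenchymal cells, which releases Smo and lets the Gli factors act on their target genes. Gli1, Ptch1 and Hhip are classical targets of the pathway, so their RNA is widely used as a readout of it. Foxf1 and Foxl1 are expressed in the fibroblasts and other mesenchymal cells next to the gut epithelium and lie downstream of Hedgehog signalling there. The promoters of the epithelial ligand and of the 2 target genes that carry the receptor and its decoy are shown because several of the results below turn on these 3 genes. They are the 300 bases around the annotated start, 5′ to 3′, from RefSeq on GRCm38.p6, with the 250 bases before the start in lower case and the 50 bases from the start on in capitals. Ihh lies at chr1:74951623-74951922, Ptch1 at chr13:63565686-63565985 and Hhip at chr8:80057959-80058258, all on the minus strand.
Ihh: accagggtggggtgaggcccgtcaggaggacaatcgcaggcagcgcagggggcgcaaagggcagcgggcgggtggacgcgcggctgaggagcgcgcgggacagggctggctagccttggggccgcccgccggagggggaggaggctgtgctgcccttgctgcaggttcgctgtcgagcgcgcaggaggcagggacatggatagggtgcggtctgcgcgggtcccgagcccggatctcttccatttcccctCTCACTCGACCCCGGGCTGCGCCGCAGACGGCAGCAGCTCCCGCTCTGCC
Ptch1: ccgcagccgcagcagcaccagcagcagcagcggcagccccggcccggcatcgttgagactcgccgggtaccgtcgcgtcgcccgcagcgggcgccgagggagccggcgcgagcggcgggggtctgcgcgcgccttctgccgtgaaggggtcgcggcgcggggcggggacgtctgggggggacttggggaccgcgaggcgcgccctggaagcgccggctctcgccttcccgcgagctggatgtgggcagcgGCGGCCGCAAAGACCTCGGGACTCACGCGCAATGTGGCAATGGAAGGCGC
Hhip: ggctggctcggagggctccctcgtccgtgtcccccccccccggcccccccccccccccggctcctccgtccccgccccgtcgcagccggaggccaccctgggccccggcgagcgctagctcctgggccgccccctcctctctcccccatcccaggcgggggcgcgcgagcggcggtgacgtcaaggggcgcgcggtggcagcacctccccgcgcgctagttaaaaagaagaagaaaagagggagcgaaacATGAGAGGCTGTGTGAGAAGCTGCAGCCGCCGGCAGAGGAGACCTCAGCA
Promoters were at hand for 5 of the 9 genes, the other 2 being those of Gli2 and Gli3. GC content was 72.7% for Ihh, 76.3% for Ptch1 and 73.7% for Hhip, against a median of 52.7% over 32851 mouse promoters. The Gli consensus GACCACCCA, searched on both strands, was found in 0 of the 5 windows and in 83 of the 32851 promoters (0.253%).

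Whole tumour fragments were profiled, and the values are log2 intensities, on which a difference of 1 is a factor of 2. Markers of gut epithelium were strong on every array, with Epcam between 9.65 and 11.6 and Krt8 between 10.7 and 11.6, and the fibroblast collagen Col1a1 lay between 10.0 and 12.4. Because tissue was measured in bulk, fewer mesenchymal or epithelial cells and less RNA per cell cannot be told apart. The arrays differed in spread: the SD of all values of an array was between 1.46 and 1.83. It was 1.82 and 1.81 in the galunisertib tumours of MTO68 against 1.76 and 1.47 in its controls, and 1.57 and 1.55 in the galunisertib tumours of MTO207 against 1.461 and 1.461 in its controls. The second control tumour of MTO68 thus stood apart from the other 3 tumours of its line. What set the spread of the arrays was not tested.

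The ligand Ihh had the widest range of the 9 genes, 4.07 log2 units over the 20 tumours. In MTO68 it read 9.16 and 6.71 in galunisertib tumours, against 6.81 and 6.18 in control tumours. In MTO93 it read 7.01 and 6.93 in galunisertib tumours, against 5.99 and 7.20 in control tumours. In MTO140 it read 8.36 and 7.94 in galunisertib tumours, against 8.23 and 8.06 in control tumours. These 4 tumours of MTO140 lay close together, and the groups overlapped in each of the 3 LAKTP lines. In MTO54 Ihh read 6.86 and 5.79 in galunisertib tumours, against 5.09 and 6.06 in control tumours. In MTO207 it read 6.93 and 5.93 in galunisertib tumours, against 5.92 and 6.83 in control tumours. Here too the groups overlapped, so no line separated its galunisertib from its control tumours by this gene.

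**Figure D1:**
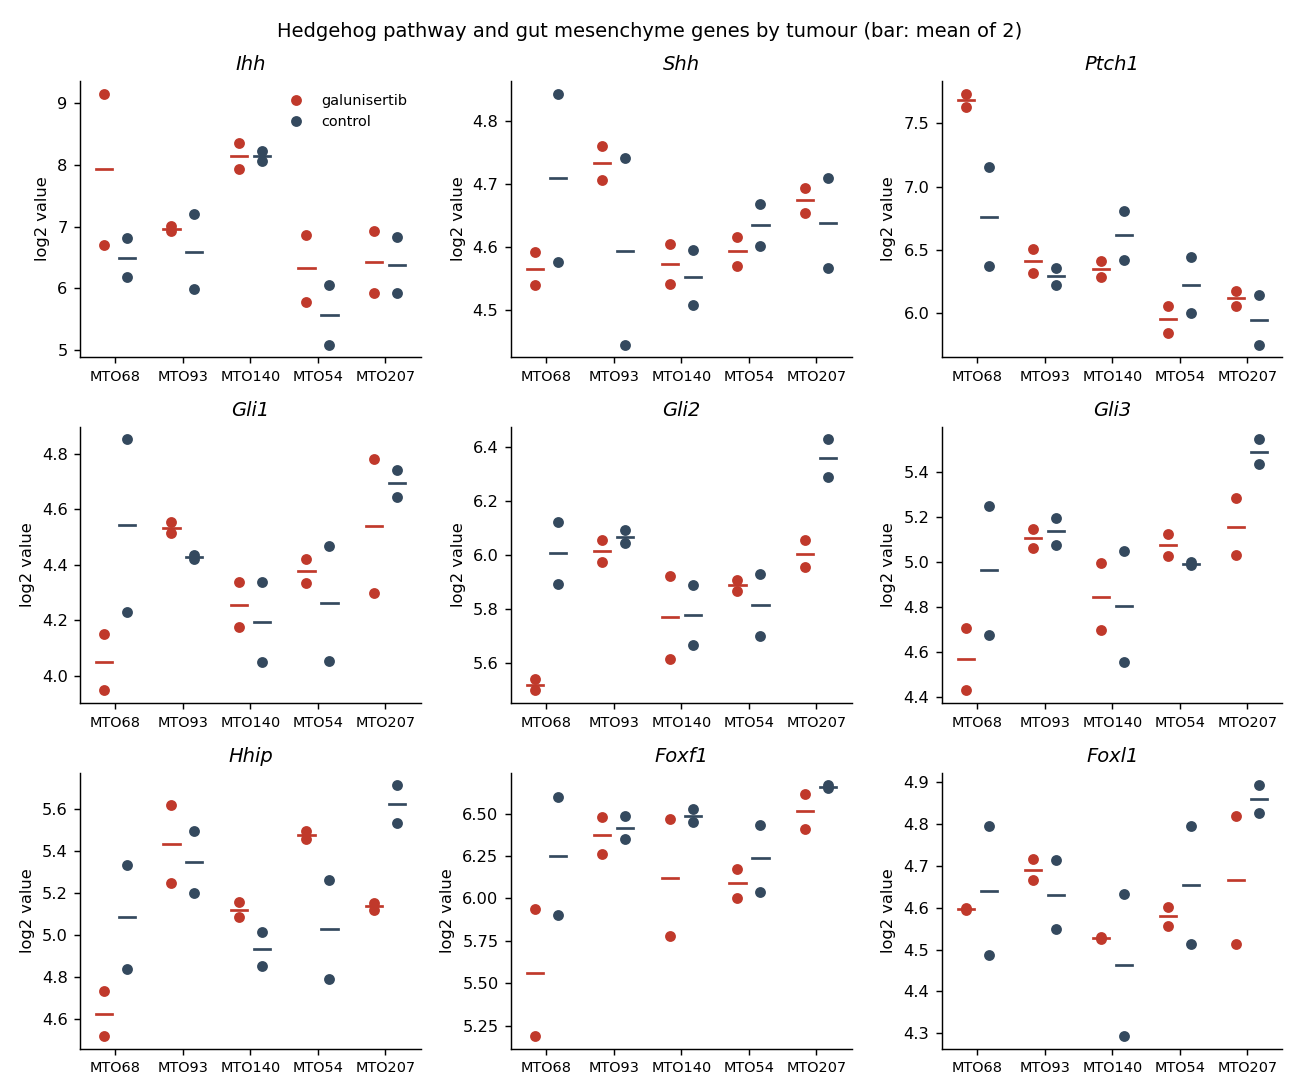
Log2 value of each of the 9 genes (y axis, a scale per gene) in the 5 organoid lines (x axis), with 1 point per tumour, galunisertib left of control, and a bar at the mean of 2 tumours. Ihh stood highest in all 4 tumours of MTO140 except for 1 galunisertib tumour of MTO68 at 9.16, and Ptch1 stood highest in the galunisertib tumours of MTO68 at 7.73 and 7.63.

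Between lines Ihh followed the order MTO140, MTO68, MTO93, MTO207 and MTO54, with means of 8.15 ± 0.19, 7.21 ± 1.33, 6.78 ± 0.54, 6.40 ± 0.55 and 5.95 ± 0.73 (SD, n = 4 each). The line difference passed limma's F test (F = 6.56, adjusted p = 0.010). MTO140 exceeded MTO54 by 2.20 (SE 0.46, limma adjusted p = 0.0058) and MTO207 by 1.74 (SE 0.46, limma adjusted p = 0.019), and no neighbouring pair in the order passed. Of the 9 genes, 4 differed between lines (Ihh, Ptch1, Gli2 and Gli3), while 51.9% of all tested genes did, so a line difference as such does not set these genes apart. Over the 10 pairs of lines, 11 of 90 pairs for the 9 genes were called (12.2%), against 15.6% of pairs for all genes.

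Levels of epithelial and colonocyte markers stood beside those of Ihh as follows. The mean of 11 epithelial genes was 10.2 in MTO140 and between 9.18 and 9.40 in the other 4 lines. The mean of 10 genes of differentiated colonocytes was 9.59 in MTO140, 8.38 in MTO93, 7.43 in MTO207, 7.32 in MTO68 and 6.82 in MTO54, so MTO140 was highest and MTO54 lowest on both this list and Ihh. With the epithelial mean as a covariate the limma adjusted p for Ihh between lines was 0.244, and without MTO140 it was 0.177. The part of these cells in the level of Ihh was not tested further.

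**Figure D2:**
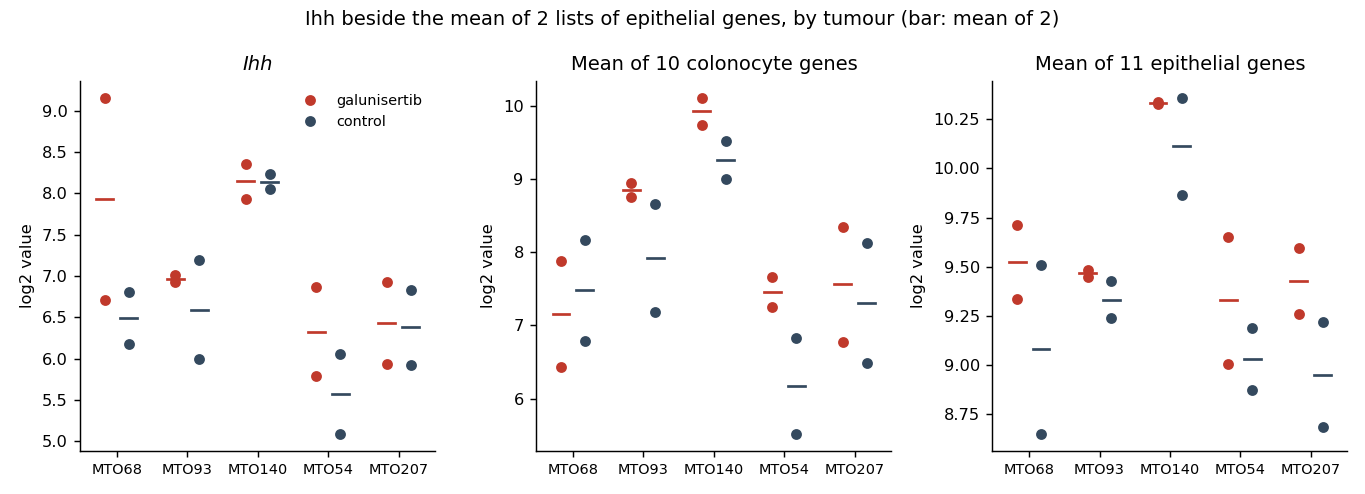
Log2 value of Ihh (left), mean log2 value of 10 colonocyte genes (middle) and of 11 epithelial genes (right) in each tumour by line, galunisertib left of control, with a bar at the mean of 2 tumours. MTO140 was highest by line mean in all 3 panels, at 8.15, 9.59 and 10.2.

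The genes whose levels ran most like Ihh, once each line's mean was taken off, were Pdk2 (r = 0.87), Pllp (r = 0.86) and Pla2g10 (r = 0.86) over the 20 arrays. Pdk2 encodes a kinase of pyruvate dehydrogenase, Pllp a plasmolipin of epithelial membranes and Pla2g10 a secreted phospholipase.

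Shh, the second ligand, stayed within 0.40 log2 units over the 20 tumours. Another of its probe sets also carries the symbol 9530036O11Rik and was not used. It read 4.54, 4.61 and 4.76 (lowest, median and highest of 10) in galunisertib tumours, against 4.44, 4.60 and 4.84 in control tumours. Line means lay between 4.56 and 4.66, and the line difference was not called. It was dim, with 39.6% of all values on the arrays below its mean of 4.63.

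The receptor Ptch1, which is both the brake on the pathway and one of its targets, was highest in MTO68. It read 7.73 and 7.63 in the galunisertib tumours of MTO68, against 7.15 and 6.37 in its control tumours. All 4 galunisertib and control tumours of MTO54 lay between 5.85 and 6.44, and those of MTO207 between 5.75 and 6.17. Those of MTO93 lay between 6.23 and 6.51 and those of MTO140 between 6.29 and 6.81, so both galunisertib tumours and the first control of MTO68 were above every tumour of the other lines, while its second control, at 6.37, lay within their range. Line means were 7.22 ± 0.62 in MTO68, 6.48 ± 0.23 in MTO140, 6.35 ± 0.12 in MTO93, 6.09 ± 0.25 in MTO54 and 6.03 ± 0.19 in MTO207 (SD, n = 4 each). Ptch1 differed between lines (limma, F = 8.98, adjusted p = 0.0038) and MTO68 exceeded each other line, by 0.74 (SE 0.23, MTO140, limma adjusted p = 0.035) up to 1.19 (SE 0.23, MTO207, limma adjusted p = 0.0031). None of the pairs among the other 4 lines was called. These tests took galunisertib and control tumours together, with the treatment difference held equal in all lines. In galunisertib tumours Ptch1 averaged 7.68 in MTO68 and 6.35 in MTO140. In control tumours the means were closer, at 6.76 in MTO68 and 6.62 in MTO140. The call between lines was kept under all 36 alternatives run, with limma adjusted p of at most 0.047. A second probe set for Ptch1, at a mean of 4.54, did not follow the first (r = -0.26 over 20 arrays) and did not show the high reading of MTO68, where it averaged 4.53 in galunisertib and 4.50 in control tumours, against 4.57 in galunisertib and 4.77 in control tumours of MTO207.

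Hhip, which binds Hedgehog ligands and holds them from Ptch1, lay on different sides of its controls in different lines. It read 4.52 and 4.73 in galunisertib tumours of MTO68, against 4.84 and 5.33 in its controls, and 5.12 and 5.15 in galunisertib tumours of MTO207, against 5.71 and 5.53 in its controls. It read 5.49 and 5.45 in galunisertib tumours of MTO54, against 4.79 and 5.26 in its controls, and 5.16 and 5.08 in galunisertib tumours of MTO140, against 4.85 and 5.01 in its controls. In these 4 lines the galunisertib and control tumours did not overlap, with galunisertib lower in MTO68 and MTO207 and higher in MTO54 and MTO140. Such a separation of 2 against 2 tumours was common: of all tested genes, 23.2% were lower in this way in MTO68 and 31.6% in MTO207, and 17.8% were higher in MTO54 and 8.32% in MTO140. Its line means lay between 4.86 in MTO68 and 5.39 in MTO93, and neither its line difference nor its interaction with treatment was called (limma adjusted p = 0.563 for the interaction). A second probe set of Hhip, at a mean of 4.29, gave smaller differences, galunisertib minus control. They were -0.18 in MTO68, -0.12 in MTO207 and 0.13 in MTO54, and in MTO140 the sign was opposite, at -0.05. Further probe sets, at means of 3.86 and 3.41, exceeded the filter level on 1 and 0 arrays.

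The 3 Gli factors had much the same order of lines. Gli1, the activator and target, had line means between 4.23 in MTO140 and 4.62 in MTO207. Gli2, the main activator, had 5.76 in MTO68, 5.77 in MTO140, 5.85 in MTO54, 6.04 in MTO93 and 6.18 in MTO207. Gli3, which acts mostly as a repressor, had 4.76 in MTO68, 4.82 in MTO140, 5.03 in MTO54, 5.12 in MTO93 and 5.32 in MTO207. By these means over both treatments, all 3 were highest in MTO207, with MTO68 and MTO140 the 2 lowest lines. In control tumours alone, MTO68 was not among the lowest for Gli1 and Gli2. There Gli1 averaged 4.54 in MTO68 against 4.43 in MTO93, and Gli2 6.01 in MTO68 against 5.82 in MTO54. Gli3 in controls still averaged less in MTO68 (4.96) than in MTO54 (4.99). Gli2 (limma, F = 4.07, adjusted p = 0.036) and Gli3 (limma, F = 4.88, adjusted p = 0.022) passed between lines and Gli1 did not. MTO68 was below MTO207 by 0.42 for Gli2 and by 0.56 for Gli3 (differences of -0.42, SE 0.13, and -0.56, SE 0.14, MTO68 minus MTO207), and MTO140 minus MTO207 gave -0.41 and -0.50.

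Foxf1 and Foxl1, which lie close to each other on chromosome 8, were also highest in MTO207. Foxf1 averaged 6.59 in MTO207 and 5.91 in MTO68, with means of 6.39 (MTO93), 6.30 (MTO140) and 6.16 (MTO54) between them, and MTO68 minus MTO207 was -0.68 (SE 0.20, limma adjusted p = 0.029). Its F test between lines was not called. By treatment it read 5.19, 6.22 and 6.62 (lowest, median and highest of 10) in galunisertib tumours, against 5.90, 6.47 and 6.67 in control tumours. The groups overlapped. Foxl1 stayed between 4.29 and 4.89 in all 20 tumours, with line means between 4.50 and 4.76, and was not called between lines.

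Array spread moved with most of these genes. In a fit pooled over the lines, 7 of the 9 genes read lower on arrays of wider spread, against 33.0% of all tested genes. Ptch1 read higher, as 36.6% of all tested genes did. This fit held line and treatment as terms and was not run in single lines, so the slope need not hold in each. The second control of MTO68 (SD 1.47 against a line mean of 1.72) has weight in it, and the slope was not refitted without that array. Per 0.1 of array SD, limma's slope was -0.25 for Hhip (SE 0.05), -0.23 for Gli1 (SE 0.03), -0.20 for Gli3 (SE 0.04), -0.19 for Foxf1 (SE 0.07), -0.15 for Gli2 (SE 0.03), -0.11 for Foxl1 (SE 0.03) and -0.07 for Shh (SE 0.03). It was 0.28 for Ptch1 (SE 0.06) and 0.16 for Ihh (SE 0.20), which was not called. Over all genes the slope followed the level, with 59.5% of the dimmest 3889 genes falling and 72.6% of the brightest 3889 rising. This slope was added after the data had been seen.

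**Figure D3:**
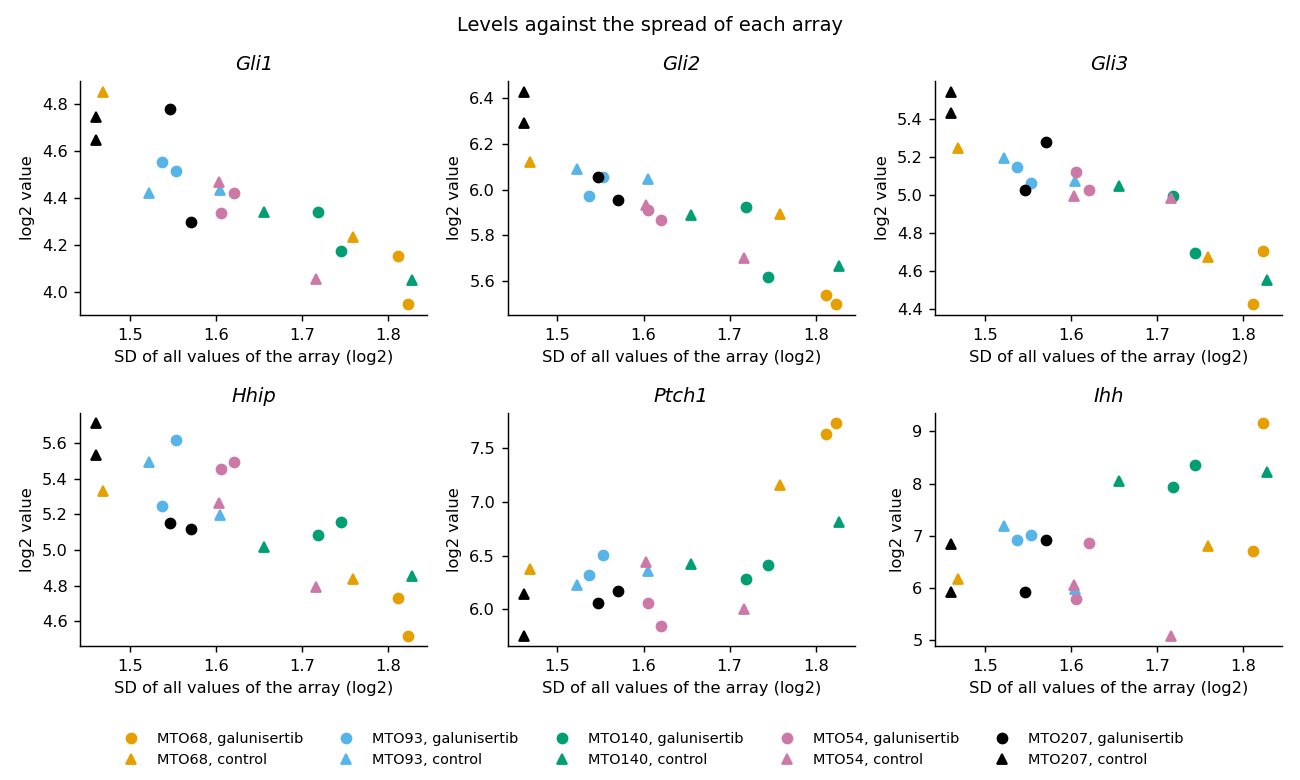
Log2 value of 6 of the genes (y axis) against the SD of all values of the array (x axis), with 1 point per tumour, coloured by line, circles for galunisertib and triangles for control. Gli1, Gli2, Gli3 and Hhip fell along the axis in tumours of both treatments, and Ptch1 rose along it.

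With array SD as a covariate, Ptch1 still differed between lines (limma adjusted p = 0.0018), whereas Gli2 (limma adjusted p = 0.700), Gli3 (limma adjusted p = 0.596) and Ihh (limma adjusted p = 0.0502) did not pass. By means over both treatments, Gli2 and Gli3 were highest in the line with the narrowest arrays (MTO207, mean SD 1.51). They were lowest in the 2 with the widest (MTO68 at 1.72 and MTO140 at 1.74). Gli2 passed between lines in 19 of 36 alternatives, Gli3 in 32 and Ihh in 33. The 3 genes whose levels ran most like Gli3 were Sh2b2 (r = 0.95), Cyct (r = 0.94) and Crisp2 (r = 0.94), the last 2 being genes of the testis. Those most like Gli1 were Prss1 (r = 0.94), the pancreatic trypsinogen, Scn1a (r = 0.94), a neuronal sodium channel, and Rwdd3 (r = 0.93). Those most like Hhip were Olfr68, an olfactory receptor, Zbtb8b and Krt81, a hair keratin, each at r = 0.92. For Gli2 they were Edn1 (r = 0.94), the vascular peptide endothelin, Rbp7 (r = 0.93) and Scn3b (r = 0.93).
The bright and rising Ptch1 ran with Cisd2 (r = 0.94), Acot13 (r = 0.92) and Tug1 (r = 0.91). Foxf1 ran with St3gal3 (r = 0.85), Slc43a1 (r = 0.85) and Ppp1r12b (r = 0.84), Foxl1 with Lin7b (r = 0.90), Tac2 (r = 0.90) and Apoa2 (r = 0.89), and Shh with Cdkn2c (r = 0.88), Klhl18 (r = 0.83) and Gpr135 (r = 0.81). These correlations are over 20 arrays after each line's mean was taken off, and the arrays share their spread.

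Galunisertib moved none of the 9 genes past the test. Over the 5 lines 0 of the 9 genes were called, as were 0 of 15556 genes (0%) in all by limma, where 1238 had an unadjusted p under 0.05. Foxf1 was lower in all 5 lines, by a difference of -0.28 (SE 0.13, 95% interval -0.54 to -0.01, limma adjusted p = 0.617). Its second probe set read higher with galunisertib in MTO93 (0.11) and lower in the other 4 lines. Ihh was higher in all 5 lines, by 0.52 (SE 0.29, 95% interval -0.09 to 1.14, limma adjusted p = 0.674). The Ihh difference was only 0.0051 in MTO140 and 0.05 in MTO207, against 1.44 in MTO68. With each tumour left out in turn, Ihh over the 5 lines stood between 0.28 and 0.63. Gli2 was lower in 4 of 5 lines, by a difference of -0.17 (SE 0.08, 95% interval -0.34 to 0.00, limma adjusted p = 0.643). The remaining 6 genes had differences between -0.13 (Gli3, 95% interval -0.32 to 0.07) and 0.13 (Ptch1, 95% interval -0.17 to 0.43), with Shh at 0.00 (95% interval -0.11 to 0.12). The median of the 9 differences was -0.05 and that of all tested genes 0.00, with 3 genes above 0 and 6 below.

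**Figure D4:**
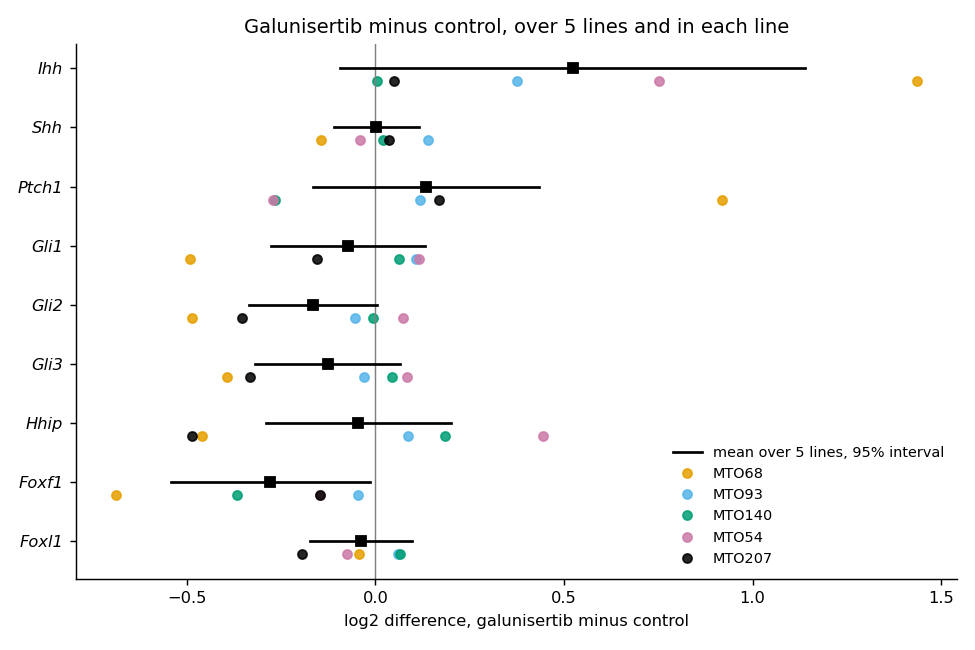
Galunisertib minus control on the log2 scale (x axis) for each gene (rows), with black squares and lines for the mean over 5 lines and its 95% interval from limma, and coloured points for each line. Most intervals spanned 0, that of Foxf1 ran from -0.54 to -0.01, and the points of MTO68 lay farthest from 0 for Ihh at 1.44, Ptch1 at 0.92 and Foxf1 at -0.69.

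Cell type markers read as follows beside these differences, and no marker gene was called over the 5 lines either. The mean of 12 fibroblast genes was between 6.68 and 7.65 in galunisertib tumours, against 7.04 to 8.35 in control tumours, and all 12 were lower over the 5 lines (mean difference -0.60). All 7 gut smooth muscle genes were lower too (-0.46), and the pericyte mean was lower by a difference of -0.36. Of 8 endothelial genes 7 were lower (mean difference -0.24), as were all 4 mesothelial genes (-0.16). Means of enteric glia and neuron genes (-0.05) and of leukocyte genes (-0.01) moved less. The endothelial mean was higher with galunisertib in MTO68 (6.34 against 6.05 in control tumours) and in MTO207 (6.25 against 6.13). In MTO54, however, all 7 smooth muscle genes were higher, with a mean of 6.82 in galunisertib tumours against 6.40 in control tumours, and in MTO207 the pericyte mean was 5.89 in galunisertib tumours against 5.82 in control tumours. The mean of the epithelial genes averaged 9.62 in galunisertib tumours, against 9.30 in control tumours, and all 11 were higher (0.31), as were all 10 colonocyte genes (0.56). In MTO68, where the difference of Ihh was largest, the colonocyte mean was lower instead, at 7.16 in galunisertib tumours against 7.48 in control tumours, with 7 of the 10 genes lower. The part of these shifts in the lower Foxf1 and higher Ihh readings was not tested beyond covariate fits, none of which called a member over the 5 lines.

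Single lines gave 0 of 9 calls each. Of all tested genes 2.01% were called in MTO68, 0.00643% in MTO140 and 0% in each of the remaining lines MTO93, MTO54 and MTO207. The mean of the 3 LAKTP lines also called 0 of the 9, against 0.00643% of all genes. The differences of Ihh, Ptch1, Foxf1 and the 3 Gli factors were farthest from 0 in MTO68. There galunisertib minus control was 1.44 for Ihh (SE 0.67, limma adjusted p = 0.151), 0.92 for Ptch1 (SE 0.25, limma adjusted p = 0.064), -0.69 for Foxf1 (SE 0.28, limma adjusted p = 0.125) and -0.49 for Gli2 (SE 0.16, limma adjusted p = 0.086). Gli1 stood at -0.49, Hhip at -0.46, Gli3 at -0.39, Shh at -0.14 and Foxl1 at -0.04, so the target Ptch1 and the targets Gli1 and Hhip differed in sign in this line. With each tumour left out in turn, the MTO68 differences were 0.21 to 2.66 for Ihh and 0.53 to 1.31 for Ptch1. They were -0.80 to -0.18 for Gli1, -0.71 to -0.21 for Hhip and -0.68 to -0.11 for Gli3. Leaving out the narrow second control gave the end nearest 0 for Ptch1 (0.53), Gli1 (-0.18), Hhip (-0.21) and Gli3 (-0.11). Those fits had a single control tumour in MTO68. With array SD as a covariate the MTO68 differences were 0.53 for Ptch1, -0.05 for Gli1, -0.09 for Hhip and 0.00 for Gli3.

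In MTO207, where the 2 control arrays were the narrowest of all, Gli2 read 5.96 and 6.06 in galunisertib tumours, against 6.29 and 6.43 in controls. Gli3 read 5.28 and 5.03 in galunisertib tumours, against 5.43 and 5.54 in controls. With Hhip, Foxf1 and Foxl1, 5 of the 9 genes had both galunisertib tumours below both controls there, as had 31.6% of all tested genes. Their differences were -0.35 (Gli2), -0.33 (Gli3), -0.49 (Hhip), -0.15 (Foxf1) and -0.19 (Foxl1), and none was called. The 9 differences of MTO93 lay between -0.05 and 0.37, those of MTO140 between -0.37 (Foxf1) and 0.19 (Hhip), and those of MTO54 between -0.27 (Ptch1) and 0.75 (Ihh).

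The test of whether treatment acted differently among the lines called 0 of the 9 genes and 0.0643% of all genes. Hhip (F = 4.44, limma adjusted p = 0.563) and Ptch1 (limma adjusted p = 0.563) had the smallest unadjusted p of the 9, at 0.016 and 0.027.

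Of 22 other genes of the pathway, 19 could be named on the array and 16 passed the filter. Galunisertib moved none of them past the test over the 5 lines, with 3 above 0, 13 below and a median difference of -0.08. The lowest p was that of Boc, a co-receptor for the ligands, at -0.40 (SE 0.11, limma adjusted p = 0.263), a gene singled out after its value was seen. Between lines 7 of the 16 passed, against 51.9% of all tested genes, so the line differences of the genes named next do not set the pathway apart. Gas1, a co-receptor, had 7.35 ± 0.94 in MTO68 and means between 5.70 and 6.10 in the other lines (limma adjusted p = 0.0031). Smo, the signal transducer, was also highest in MTO68, at 8.69 ± 0.49, and lowest in MTO140, at 7.18 ± 0.41 (limma adjusted p = 0.010). Gpr161, a negative regulator at the cilium, was highest in MTO68 at 6.09 and lowest in MTO140 at 5.34 (limma adjusted p = 0.0080), and the ligand Dhh was highest in MTO54 at 5.07 and lowest in MTO68 at 4.54 (limma adjusted p = 0.0095). Gas1 and Smo, like Ptch1, read higher on wider arrays in the fit pooled over the lines, by 0.39 and 0.27 per 0.1 of array SD. Dhh read lower on them, with a slope of -0.12.

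Of 14 other factors of the gut mesenchyme, 13 could be named on the array and 11 passed the filter. None was called over the 5 lines, with 3 above 0, 8 below and a median difference of -0.06. The lowest p was that of Wnt5a, a ligand of mesenchymal cells, at -0.55 (SE 0.21, limma adjusted p = 0.509), singled out in the same way. Between lines 6 of the 11 passed, again beside 51.9% of all tested genes, and the line differences named next do not set these factors apart. Foxf2, the paralog of Foxf1, had its highest mean in MTO68, the line with the lowest mean of Foxf1, at 5.93 ± 1.16 against 4.28 to 4.80 in the other lines (limma adjusted p = 0.0074). It too read higher on wider arrays, by 0.41 per 0.1 of array SD. The BMP ligand Bmp7 was highest in MTO68 as well, at 7.36 ± 0.67 against 5.95 to 6.51 elsewhere (limma adjusted p = 0.0018), whereas Bmp5 was lowest there at 5.45 and highest in MTO93 at 6.28 (limma adjusted p = 0.016). Bmp5 read lower on wider arrays, with a slope of -0.23 per 0.1 of array SD, and in MTO68 it spanned 5.09 to 6.07. F3, which marks subepithelial fibroblasts next to the crypts, was highest in MTO140 at 6.35 and lowest in MTO68 at 4.77 (limma adjusted p = 0.013). Stk36, Hhat, Evc2, Tcf21 and Pdgfra lay under the filter on dim genes.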

How the data were processed

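RNA of whole tumour fragments from 20 tumours was hybridised to Affymetrix mouse arrays with 1 sample each. The submitters' processing notes name RMA and affy for the deposited log2 values (versions: not given in the sources used here). The RMA method subtracts background, equalises probe distributions between arrays and condenses probes into probe sets. Of 45141 probe sets, 28898 carried 1 gene symbol in the platform annotation (551 carried several and were not used, 104 were controls), and 28689 of them were matched to current symbols by Entrez ID. The number of arrays, 2 per group, limits the precision. The labels' LY was read as galunisertib.

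Effects over the 5 lines (line as a block) and line differences (treatment as a term) were fitted on all 15556 genes past the filter, by lmFit and trended eBayes of limma 3.58.1 under R 4.3.3. Effects in single lines, their mean over the LAKTP lines and the interaction came from a model with 10 group means and a shared spread. Tests were two-sided, called at a Benjamini-Hochberg adjusted p under 0.05 over all genes, and for pairs of lines over all genes and 10 pairs. The fits were tested on simulated data. No arrays were identical. The members and gene lists were chosen with earlier results of these data known. The named genes were the members, up to 4 genes of each other list that passed in a comparison by smallest adjusted p, and the 3 genes most like each member by Pearson r (symbols of the Gm, Rik and LOC kinds passed over). Alternatives changed the filter, probe set, normalization, variance model, covariates, lines and arrays. Figures were drawn with matplotlib 3.10.9.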

Additional observations from a re-analysis of the deposited data

Results flagged for a closer look

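For 4 genes both galunisertib tumours of a line were above both of its control tumours in one line and below them in another. Such a separation was common: of all tested genes it held for 31.2% higher and 23.2% lower in MTO68, 18.1% higher in MTO93, 8.32% higher and 12.6% lower in MTO140, 17.8% higher in MTO54 and 31.6% lower in MTO207. Ptch1 was higher with galunisertib in MTO68 (0.92) and lower in MTO140 (-0.27). Its second, dimmer probe set did not show these opposite signs, at 0.02 in MTO68 and 0.08 in MTO140. Gli1 was higher in MTO93 (0.11) and lower in MTO68 (-0.49). Gli3 was higher in MTO54 (0.083) and lower in MTO207 (-0.33). A second probe set of Gli3, at a mean of 4.55, kept both signs with smaller differences (0.04 and -0.18). In MTO140 it gave -0.14, where the probe set used gave 0.04. Hhip was higher in MTO140 (0.19) and MTO54 (0.45) and lower in MTO68 (-0.46) and MTO207 (-0.49). On its second probe set Hhip was lower in MTO140 (-0.05) and kept its sign in MTO54 (0.13), MTO68 (-0.18) and MTO207 (-0.12). These are log2 differences, galunisertib minus control, of 2 tumours each. The F test for the treatment by line interaction called none of these 4 genes, with limma adjusted p of 0.563 for Ptch1 and Hhip. With each tumour left out in turn, the MTO68 difference moved between 0.53 and 1.31 for Ptch1 and between -0.71 and -0.21 for Hhip. The differences between single pairs of lines were not tested. Groups of 2 tumours were too small to look for outlying samples.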

How the results depend on the processing

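Of 339 values of the 9 genes over the 5 lines under 38 alternatives, 0 were called and 28 changed sign. Those that changed sign lay near 0, as follows. Ptch1 stood at -0.056 with the epithelial covariate and -0.062 without MTO68. Gli1 stood at 0.033 with the epithelial covariate, 0.031 with array SD and 0.032 without MTO68. Gli3 stood at 0.0058 with the epithelial covariate. Hhip stood at 0.0024 with array weights, 0.046 with the epithelial covariate, 0.068 with array SD, 0.058 without MTO68 and 0.065 without MTO207. Foxl1 stood at 0.044 with the epithelial covariate, 0.011 with array SD and 0.0016 without MTO207. Shh stood at -0.039 with the fibroblast covariate, -0.032 without MTO93, -0.0026 without MTO140 and -0.0062 without MTO207. Leaving out each tumour in turn gave -0.029 to 0.032 for Shh, -0.12 to 0.0017 for Gli1 and -0.11 to 0.019 for Hhip. Of 1560 values in single lines, those called were all in MTO68, under the fibroblast covariate or without a tumour of MTO68 or MTO140. The count of all genes called in MTO68 also rose under the fibroblast covariate, as given below, so these calls do not set the 9 genes apart. The array SD covariate was chosen after seeing the data.

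Counts of genes called over all genes moved more. Over the 5 lines (0) they were 55 with quantile normalization, 116 with array weights, 5 with the epithelial and 4 with the fibroblast covariate, 166 with array SD, 10 without MTO68, 2 without MTO54, and 0 to 43 without each tumour, the 43 without the second MTO68 control. In the LAKTP lines (1) they were 8 with no filter, 4 with a stricter one, 2 with the probe set of largest variance, 6 with the mean of probe sets, 2 with median centring, 31 with quantile normalization, 0 without trend, 4 with the epithelial and 4500 with the fibroblast covariate, 185 with array SD, 31 without MTO68, 12 without MTO140, 0 without MTO54, 0 without MTO207, and 0 to 1335 without each tumour. In MTO68 (312) they were 150 with quantile normalization, 13 with array weights, 75 with the epithelial and 8256 with the fibroblast covariate, 62 with array SD, 82 without MTO93, 601 without MTO140, 131 without MTO54, 84 without MTO207, and 40 to 8320 without each tumour, the 8320 without the first and the 40 without the second MTO68 control. In MTO93 (0) they were 4 with array weights, 4 without MTO68, 1 without MTO140, and 0 to 1 without each tumour. In MTO140 (1) they were 2 with no filter, 0 with a stricter filter, median centring, no trend, array weights, the fibroblast covariate, or without MTO93 or MTO207, 11 with array SD, 4 without MTO68, and 0 to 26 without each tumour. In MTO54 (0) they were 1 with the probe set of largest variance and 0 to 7 without each tumour. In MTO207 (0) they were 144 with array weights. For the interaction (10) they were 6 with a stricter filter, 3 without trend, 0 with array weights, 16 with the epithelial and 32 with the fibroblast covariate, 2 with array SD, 0 without MTO68, MTO93 or MTO207, 4 without MTO140, 2 without MTO54, and 2 to 2809 without each tumour. Between lines (8080) they were 12940 with array weights, 4852 with array SD, 4541 without MTO140 and 3953 without MTO207. Over pairs of lines (24269) they were 65146 with array weights, 12298 with the epithelial covariate, 12983 with array SD, 13066 without MTO93, 10223 without MTO140, 8590 without MTO207, and 16465 to 52698 without each tumour. The cause of these changes was not tested, beyond fewer lines giving fewer pairs. The stricter filter tested 12409 genes and 6 of the 9. Low signal limits Gli1, Shh and Foxl1 most.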
